A study of Rattus norvegicus with 4 samples.

Results

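The interleukin-1 family comprises secreted cytokines, their receptors and their inhibitors, and 9 of its genes were followed here: the ligands Il1a, Il1b, Il18 and Il33, the antagonist Il1rn, and the receptor genes Il1r1, Il1rap, Il1r2 and Il1rl1. They were taken as the probe sets for which the platform's annotation gives a listed gene as the only symbol. This found 15 probe sets of the 31042 tested, at least 1 for each of the 9 genes, of 14217 genes in all. The rule uses no measured value. Signals came from rat Affymetrix arrays hybridised with RNA of epithelium captured by laser microdissection. Of the 4 arrays, 2 held junctional epithelium, the collar that attaches gingiva to the tooth, and 2 held peri-implant epithelium, which seals the gingiva to an implant, here of titanium alloy. The animals were male Sprague Dawley rats, operated on at 4 weeks of age and sampled 4 weeks later, with 20 rats killed in all, and the label on every sample of both groups reads tooth extraction with implant placement. The comparison asks how the epithelium beside an implant differs in expression from that beside a tooth.

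Interleukin-1 alpha and beta bind the same receptor, Il1r1, which recruits the accessory chain Il1rap and signals through Myd88 and Irak kinases to NF-kappaB. The pathway is braked outside the cell by the antagonist Il1rn, which occupies the receptor without signalling, and by the decoy receptor Il1r2, which binds ligand but lacks the signalling domain. Il1b and Il18 are made as precursors that caspase-1 cleaves, whereas Il1a is active as a precursor and, like Il33, acts as an alarm signal when epithelial cells are damaged. In gingiva, interleukin-1 is best known for inducing leukocyte chemoattractants and matrix-degrading enzymes.

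In peri-implant epithelium the agonists Il1b and Il1a and the decoy receptor Il1r2 were higher than in junctional epithelium, by 2.95-fold, 1.80-fold and 2.31-fold. The antagonist Il1rn differed by 1.17-fold and did not pass the test, and neither did the signalling receptor chains Il1r1 and Il1rap or the ligand Il18. Il33 and Il1rl1 gave no signal above background on any array. In the same samples 5 of 7 measured neutrophil markers, of 15 listed, rose, against 6.60% of all genes. Those that rose include S100a8 and S100a9, which keratinocytes also make, while Mmp8 and Itgam were at or below background on all arrays. The calls rest on a fit in which the variance follows the signal. With limma's default prior 0 of the members' 15 probe sets passed, and 0 of all 31042. In that fit 5 of the 15 had an unadjusted p under 0.05, as did 5247 of the 31042.

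The upstream sequences of the agonists and of the antagonist are shown first because the unequal differences of these 3 genes are compared within arrays. They are from RefSeq, assembly GRCr8, and run from 250 bases before to 50 bases after the annotated start. Windows were found for 8 of the 9 members, all but Il1r2. Capitals mark the letters TATAAA on the gene's strand, the AP-1 site TGANTCA on either strand, and the C/EBP site TTGCNNAA on either strand.
Il1b, chr3:137036532-137036831, minus strand: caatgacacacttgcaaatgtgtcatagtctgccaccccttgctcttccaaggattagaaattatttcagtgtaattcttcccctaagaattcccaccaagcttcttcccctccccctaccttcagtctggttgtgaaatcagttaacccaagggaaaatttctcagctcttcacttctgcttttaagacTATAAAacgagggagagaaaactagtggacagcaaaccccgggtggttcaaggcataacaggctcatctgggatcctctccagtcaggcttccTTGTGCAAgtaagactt
Il1a, chr3:136989968-136990267, minus strand: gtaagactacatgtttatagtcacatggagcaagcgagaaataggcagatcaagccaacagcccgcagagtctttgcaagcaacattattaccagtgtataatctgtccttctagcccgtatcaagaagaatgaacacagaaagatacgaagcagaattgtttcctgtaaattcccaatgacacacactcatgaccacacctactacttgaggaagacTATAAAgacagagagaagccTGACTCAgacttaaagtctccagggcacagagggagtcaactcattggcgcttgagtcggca
Il1rn, chr3:27520072-27520371, plus strand: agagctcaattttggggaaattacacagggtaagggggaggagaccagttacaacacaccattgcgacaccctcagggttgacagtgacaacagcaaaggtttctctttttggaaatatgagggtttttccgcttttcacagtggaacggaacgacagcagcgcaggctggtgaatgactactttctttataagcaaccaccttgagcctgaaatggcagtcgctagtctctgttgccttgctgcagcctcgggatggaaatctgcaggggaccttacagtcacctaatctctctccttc

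The windows of both agonists held TATAAA, which begins 60 bases before the start in Il1b and 32 bases before it in Il1a, and which 8.8% of all 33465 windows hold. The Il1a window also held TGANTCA, from 12 bases before the start (7.33% of all windows), and the Il1b window held TTGCNNAA, from 34 bases after it (10.6% of all windows). The Il1rn window held none of these letters. The NF-kappaB decamer consensus, searched on both strands and present in 4.18% of windows, was in none of the 3 windows shown and in those of Il1r1 and Il1rap. These are matches of letters within a short window and show no binding. In the same assembly Il1a lies on chromosome 3 from 136979804 to 136990236 and Il1b beside it from 137030200 to 137036581. Il1rn, from 27509836 to 27525738, is on the same chromosome and far from them, and its window lies inside the annotated gene. Most of the Il1a window also lies inside the annotated Il1a gene. All 9 are protein-coding genes.

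Signals are on a log2 scale, so a difference of 1 is a doubling. Background was set at 6.42, the most that any of 27 probe sets for bacterial controls gave. On each array 54.6% to 56.8% of probe sets exceeded it. Of the members' 15 probe sets, 10 exceeded it on all 4 arrays, 4 on no array, and 1, for Il1r1, on 3 arrays. The captured tissue was checked by markers. All 13 measured oral epithelial markers were above background in both epithelia, with Krt5 at 15.86 ± 0.02 in junctional and 16.05 ± 0.25 in peri-implant samples (mean ± SD, n = 2 each, as below). Of the 13, 4 rose, 0 fell and 9, Krt5 among them, did not pass, where 6.60% of all genes rose and 4.80% fell. Krt17 was 3.55-fold higher in peri-implant samples, and Krt15, Krt4 and Pkp1 were 1.34-fold, 1.33-fold and 1.25-fold higher. Odam and Amtn, the best known products of junctional epithelium, had no probe set of that symbol here, and Ambn and Amelx were at or below background on all arrays, so these could not serve as a check. Krt19, a keratin of junctional epithelium, gave 13.68 and 13.62 in junctional against 13.49 and 13.47 in peri-implant samples and did not pass. The laminin chains Lama3 and Lamb3, which attach epithelium to the tooth, were 2.09-fold and 1.96-fold lower in peri-implant samples (adjusted p = 0.000167 and adjusted p = 4.43e-05 in limma). Connective tissue genes were also present, with all 11 fibroblast markers above background in at least 1 group. Differences were tested with limma (empirical Bayes, robust, with a variance trend over signal), with p adjusted by Benjamini-Hochberg over all 31042 probe sets and a threshold of 0.05. The labels do not say whether the 2 samples of a group came from separate animals, so the p-values measure the spread between these samples.

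**Figure D1:**
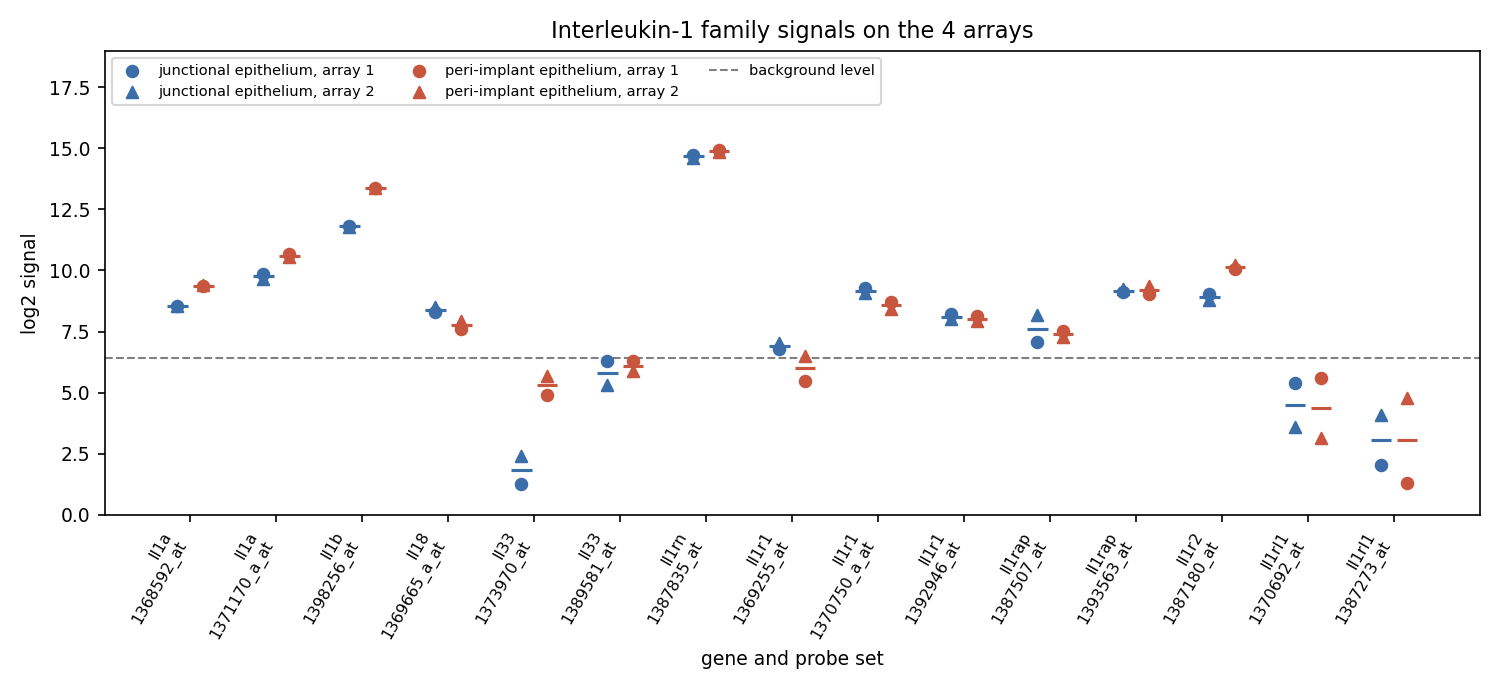
Log2 signal (vertical axis) of the 15 interleukin-1 family probe sets on each of the 4 arrays, with a short line at each group's mean (n = 2) and a dashed line at the background level of 6.42. The peri-implant points of both Il1a probe sets, of Il1b and of Il1r2 stand above the junctional points, those of Il1rn differ by 0.23 on average, and all points of Il33 and Il1rl1 are below the dashed line.

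Il1b, the main secreted agonist of activated leukocytes, gave 11.83 and 11.79 on the junctional and 13.38 and 13.36 on the peri-implant arrays. Replicates were thus within 0.05 of each other on the log2 scale while the groups lay far apart. The difference was 1.56 ± 0.08 (SE), or 2.95-fold with a 95% interval from 2.63-fold to 3.32-fold (adjusted p = 3.76e-06). Among the members only the call for Il1b held when any single array was left out, with a largest adjusted p = 0.0216 in those limma fits. In each of them 1 group has a single array, so the spread comes from the pair of the other group and the lone array is assumed to vary alike. Over all alternatives the difference ran from 1.51 to 1.58, and limma's default prior gave adjusted p = 0.14.

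Il1a, an agonist that keratinocytes store and release on injury, was measured by a pair of probe sets that moved alike. The brighter, 1371170_a_at, gave 9.85 and 9.67 in junctional against 10.68 and 10.53 in peri-implant epithelium, a difference of 0.85 ± 0.13 (adjusted p = 0.00443 in limma). The other, 1368592_at, gave 8.54 and 8.56 against 9.35 and 9.40, a difference of 0.83 ± 0.17 (adjusted p = 0.0169 in limma). In both, the lower peri-implant array exceeded the higher junctional one. The folds were 1.80 (95% interval 1.47 to 2.20) and 1.77 (1.36 to 2.30). Neither passed when any 1 array was left out, with differences from 0.76 to 0.94 for the brighter probe set and adjusted p = 0.0722 to adjusted p = 0.121.

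Il18, an agonist that epithelium makes constitutively as a precursor, pointed the other way, with 8.29 and 8.51 in junctional against 7.58 and 7.95 in peri-implant epithelium. The groups did not overlap, but the difference of -0.64 (95% interval -1.19 to -0.09) did not pass after adjustment (adjusted p = 0.145 in limma). Il33, a nuclear alarm cytokine of epithelium and endothelium, stayed at or below background throughout. Its probe set 1373970_at gave 1.25 and 2.42 against 4.89 and 5.70, values without overlap that all lie where the signal cannot be told from that of bacterial controls, and 1389581_at gave 6.29 and 5.32 against 6.29 and 5.90. No fold is given for Il33.

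Il1rn, the receptor antagonist, had signals of 14.72 and 14.62 in junctional against 14.95 and 14.86 in peri-implant epithelium, on arrays whose highest signals ran from 16.7 to 17.2. The peri-implant arrays were both higher, though by little. The difference was 0.23 ± 0.06, or 1.17-fold with a 95% interval from 1.06-fold to 1.29-fold, and missed the threshold (adjusted p = 0.0564 in limma). It passed with signals raised to the background level (adjusted p = 0.0058 in limma), a setting that gave Il1b adjusted p = 1.34e-58. It also passed with the replicate number as a block (adjusted p = 0.0187 in limma). It did not pass in limma without the robust prior (adjusted p = 0.141) or with arrays centred on the median (adjusted p = 0.437). With arrays made alike by quantile normalization the difference fell to 0.12. An increase larger than 1.29-fold lies outside the 95% interval for Il1rn, whereas the interval for Il1b starts at 2.63-fold.

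Agonist and antagonist therefore moved by unequal amounts. Within each array, subtracting the log2 signal of Il1rn from that of Il1b gave -2.89 and -2.84 for the junctional arrays and -1.57 and -1.49 for the peri-implant ones. The gap between these probe sets has no meaning as a ratio of transcripts, but its change does not depend on how an array was scaled by a constant factor. It changed by 1.33 on the log2 scale, a 2.52-fold increase of Il1b relative to Il1rn. For the brighter Il1a probe set the gap was -4.88 and -4.95 against -4.27 and -4.32, a change of 0.62, or 1.54-fold. Both changes exceeded the spread between replicates, whose largest SD was 0.05. With 2 arrays against 2, the exact two-sided permutation test cannot go below p = 0.333, and it gave p = 0.333 for both.

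**Figure D2:**
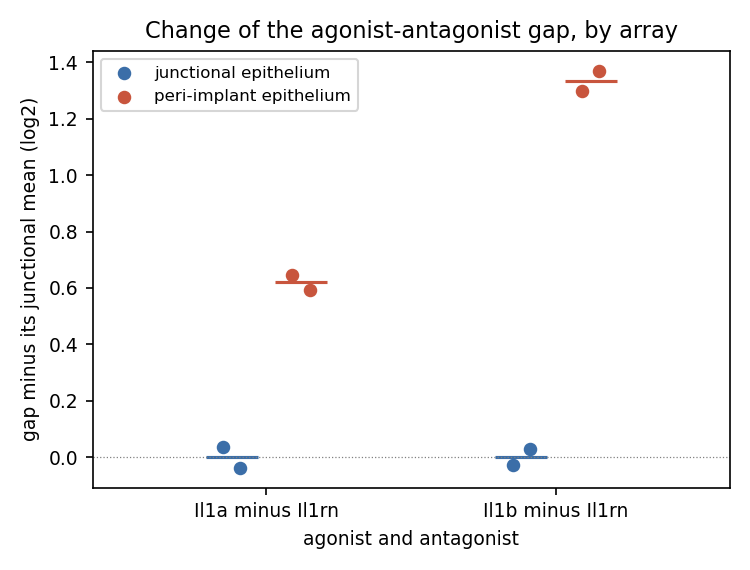
Change of the gap between an agonist's and the antagonist's log2 signal within an array (vertical axis, each gap less its junctional mean), for Il1a and Il1b, with 1 point an array and a line at each group's mean. The peri-implant points lie 0.62 above the junctional mean for Il1a and 1.33 above it for Il1b, while replicates of a group nearly coincide.

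Il1r2, the decoy receptor carried by neutrophils and induced in some epithelia, gave 9.06 and 8.81 in junctional against 10.05 and 10.24 in peri-implant epithelium. Both peri-implant arrays were well above both junctional arrays. The difference was 1.21 ± 0.16, or 2.31-fold with a 95% interval from 1.81-fold to 2.96-fold (adjusted p = 0.00206 in limma). Leaving out any 1 array, which leaves a group with a single array, ended the call, while the difference stayed between 1.09 and 1.33, with adjusted p = 0.0521 to adjusted p = 0.0945.

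The signalling receptor Il1r1 did not rise on any of its 3 probe sets. The brightest, 1370750_a_at, gave 9.28 and 9.07 in junctional against 8.71 and 8.43 in peri-implant epithelium, a difference of -0.60 (95% interval -1.03 to -0.18, adjusted p = 0.0821 in limma). It passed when the test was limited to probe sets above background on at least 2 arrays (adjusted p = 0.0476). The probe set 1392946_at gave 8.21 and 8.0 against 8.12 and 7.92, with groups that overlap, a difference of -0.08 (95% interval -0.62 to 0.45) and adjusted p = 0.874. The dimmest, 1369255_at, gave 6.80 and 7.05 against 5.49 and 6.49, where 1 peri-implant array was below background (adjusted p = 0.268). The estimates of the 3 probe sets thus differ in size, though their 95% intervals overlap. These intervals reach from -2.01 on 1369255_at to 0.45 on 1392946_at and give no single size for Il1r1.

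Il1rap, the accessory chain shared by the receptors for interleukin-1 and Il33, showed no shared direction. Its brighter probe set 1393563_at gave 9.10 and 9.25 against 9.02 and 9.37, a difference of 0.02 with a 95% interval from -0.38 to 0.42. The other, 1387507_at, gave 7.07 and 8.17 against 7.52 and 7.27, so that the junctional arrays enclosed both peri-implant values. Il1rl1, the receptor for Il33, was at or below background on all arrays with both of its probe sets, whose values ran from 1.30 to 5.60 and differed as much within groups as between them. Of the 9 listed mast cell markers measured, a lineage known to carry Il1rl1, 7 were at or below background on all arrays as well, among them Cpa3, Tpsab1 and Ms4a2. Kit exceeded background on all 4 arrays and Gata2 on 3, and neither passed the test.

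**Figure D3:**
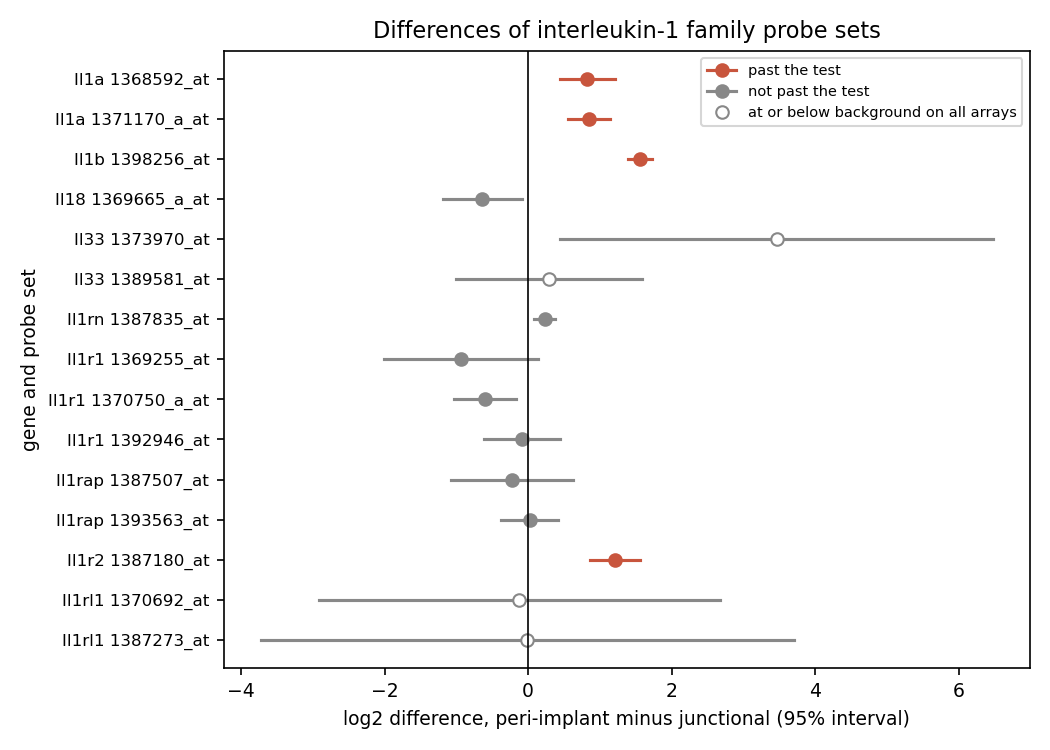
Log2 difference of peri-implant minus junctional epithelium (horizontal axis) for each interleukin-1 family probe set, with 95% intervals from limma; filled red marks 4 probe sets past the test, grey those not past it, and open symbols those at or below background on all arrays. The intervals of Il1b and Il1rn do not meet, and those of Il33 and Il1rl1 are the widest.

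In all, 4 of 15 probe sets were called higher and 0 lower, from 3 of the 9 genes. Over the whole array 4.74% of probe sets were called higher and 4.16% lower, and 7.49% of those above background on all 4 arrays were called higher. The median difference was 0.02 over the members' probe sets and 0.02 over all probe sets. Counted by gene, each by its brightest probe set, it was 0.23 over the 9 members and 0.05 over all genes. Arrays of the groups did not overlap for 6 members' probe sets with the peri-implant side higher and for 3 with it lower, where the whole array had 27.8% and 25.4%. With limma's default prior, which assumes the same variance prior at every signal level, 0 of the 31042 probe sets passed (5247 at an unadjusted p under 0.05), and the members' smallest adjusted p = 0.14, for Il1b.

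The receptor genes Il1r2, Il1r1, Il1rl2, Il1rl1, Il18r1 and Il18rap lie in that order on chromosome 9 between 49879928 and 50296583 of GRCr8. Within this cluster Il1r2 and Il1rl2 rose, Il1r1 did not pass, Il1rl1 was below background, and no probe set of a single symbol was found for the last pair. Il1rl2, the receptor for interleukin-36 cytokines, had signals of 6.67 and 6.24 beside the tooth and of 8.16 and 8.37 beside the implant, a rise of at least 3.29-fold because 1 junctional array was below background (adjusted p = 0.00821 in limma). Both peri-implant arrays exceeded background.

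Of the ligands of Il1rl2, Il36b and Il36rn were measured and fell, whereas Il36a and Il36g were not matched. Il36b, an agonist of that receptor, gave 9.44 and 9.26 in junctional against 8.01 and 8.33 in peri-implant epithelium, 2.26-fold lower (adjusted p = 0.00732 in limma). Il36rn, its antagonist, gave 12.10 and 12.12 against 11.72 and 11.85, 1.25-fold lower (adjusted p = 0.0466 in limma). In GRCr8 the annotated span of Il36b, chromosome 3 from 27422980 to 27521344, contains Il36rn and overlaps Il1rn. Of 12 other family members listed, 5 were measured, of which 1 rose, 2 fell and 2 (Il18bp and Sigirr) did not pass. Among all genes, each taken by its brightest probe set, 6.60% rose and 4.80% fell. Without the robust prior, with quantile normalization or with arrays centred on the median, 2 genes of this list were called in place of 3. None of the 3 calls held when any 1 array was left out.

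Of the genes that mature and release these cytokines, 14 of 20 listed were measured. Of these, 2 rose, 1 fell and 11 did not pass, where 6.60% of all genes rose and 4.80% fell. Their median difference was 0.11, against 0.05 for all genes. Casp1, the protease that cleaves the Il1b and Il18 precursors, gave 5.71 and 5.63 beside the tooth and 7.65 and 7.56 beside the implant, higher by at least 2.27-fold (adjusted p = 0.0159 in limma), with both junctional arrays below background. Casp4, an inflammatory caspase that senses intracellular lipopolysaccharide, gave 7.70 and 7.32 against 9.22 and 9.10, 3.13-fold higher (adjusted p = 0.00275 in limma). Capn1, a calpain of the protease family that trims the Il1a precursor, was 1.42-fold lower. The adaptor Pycard (difference 0.02, 95% interval -0.20 to 0.23) and the pore protein Gsdmd (0.07, -0.73 to 0.87), both named after their values were seen, did not pass. The 3 calls of this list were lost without any 1 array.

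Below the receptor, 26 of 29 listed signalling genes were measured, and 6 rose, 2 fell and 18 did not pass, with a median difference of 0.06 against 0.05 for all genes, of which 6.60% rose and 4.80% fell. The 6 that rose were Nfkbiz, Nfkb1, Tnfaip3, Nfkb2, Nfkbib and Nfkbia. The receptor-associated kinases Irak2 and Irak3 differed by 0.53 (95% interval 0.06 to 1.00) and 1.13 (0.13 to 2.13) and did not pass. Nfkbiz, a nuclear co-regulator, gave 10.14 and 10.02 in junctional against 11.40 and 11.35 in peri-implant epithelium, 2.44-fold higher, on 1 of its 2 probe sets. Nfkb1, the p105 precursor subunit, was 2.30-fold higher and Tnfaip3, the deubiquitinase that ends NF-kappaB signalling, 2.24-fold higher. Nfkb2, Nfkbib and Nfkbia, named after their values were seen, were 2.19-fold, 2.08-fold and 1.86-fold higher. The adjusted p of these 6 in limma ran from 0.000146 for Nfkbiz to 0.00351 for Tnfaip3. Map3k7, the kinase that activates the IkappaB kinases, gave 10.06 and 9.95 against 8.59 and 7.02, lower on both peri-implant arrays but by unequal amounts (adjusted p = 0.0101 in limma). Traf6, also named afterwards, was lower by 0.51 on the brightest of its 4 probe sets and did not pass on the others. Myd88, the adaptor of the receptor, gave 9.06 and 8.98 against 9.53 and 9.58, a difference of 0.54 (95% interval 0.19 to 0.88) that did not pass (adjusted p = 0.06 in limma). Without any 1 array, 0 to 4 genes of this list were called, against 8 with all arrays.

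Of 34 listed genes that interleukin-1 is known to induce, all were measured, and 16 rose, 1 fell and 17 did not pass, a median difference of 0.74, or 0.43 after values under the background level were set to that level. The list holds 47.1% genes that rose, against 6.60% of all genes. The neutrophil chemoattractant Cxcl2 gave 9.02 and 8.78 in junctional against 10.99 and 11.05 in peri-implant epithelium, 4.34-fold higher (adjusted p = 2.94e-05 in limma). The monocyte chemoattractant Ccl2 was at least 4.8-fold higher, the calprotectin subunit S100a9 5.18-fold higher and the siderophore-binding Lcn2 at least 3.73-fold higher. The ribonuclease Zc3h12a, which degrades cytokine transcripts and was named after its value was seen, gave 8.74 and 8.73 against 10.37 and 10.30, 3.04-fold higher. Il6, Csf2, Ccl7, Lif, Vcam1 and Tnfaip6 were at or below background on all arrays. The listed matrix-degrading enzymes Mmp3, Mmp9, Mmp10 and Mmp13 differed by 0.90, 0.09, -0.85 and 0.46 and did not pass by their brightest probe sets. For Mmp9, 1 of 2 probe sets was called. Tnf, Nos2 and Ptges were above background on all 4 arrays and did not pass. The gene that fell was the beta-defensin Defb4 (named after its value was seen), by 1.83 on the log2 scale. Without any 1 array 5 to 9 genes of this list were called, against 17 with all arrays. These genes also answer to other stimuli, and none of the measurements identifies interleukin-1 as the one acting here.

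**Figure D4:**
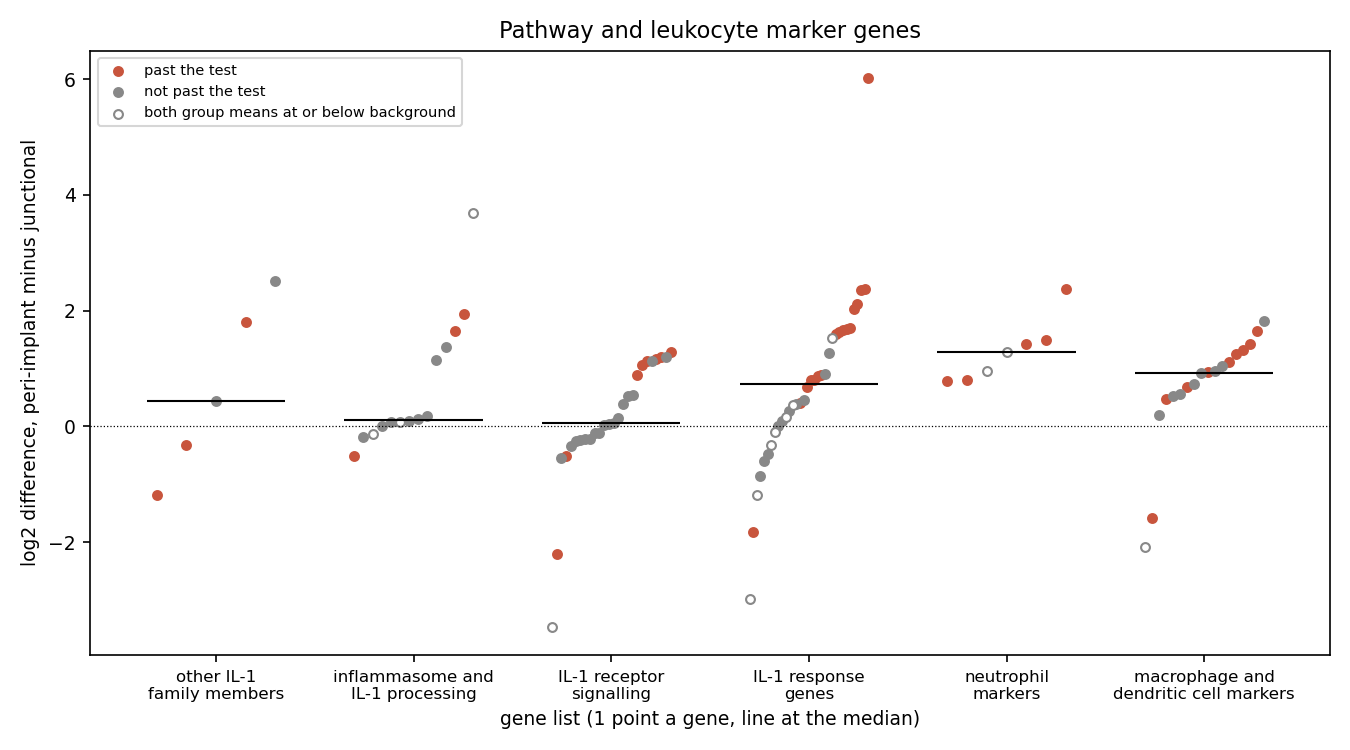
Log2 difference of peri-implant minus junctional epithelium (vertical axis) for each measured gene of 6 lists, 1 point a gene by its brightest probe set, with a line at the list's median. Red points are past limma's test, open ones have both group means at or below background; the medians are 0.06 for the signalling genes, 0.74 for the response genes and 1.29 for the neutrophil markers.

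Some of the listed leukocyte markers were also higher in the same samples. Of 15 listed neutrophil markers 7 were measured and 5 rose, 0 fell, where 6.60% of all genes rose and 4.80% fell. Their summed linear signal ran from 38453 to 38725 beside the tooth and from 90062 to 103467 beside the implant. S100a8 and S100a9, which keratinocytes also make, are counted in the list of response genes as well. Without them the sum was 1461 to 1493 against 3328 to 3398. Cxcr2, a chemokine receptor of neutrophils, gave 9.47 and 9.61 in junctional against 10.95 and 10.96 in peri-implant epithelium, 2.67-fold higher, and Fcgr3a, an Fc receptor, was 2.82-fold higher. The listed markers Mmp8 and Itgam were at or below background on all arrays, and Mpo and Elane were not matched.

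Of 19 listed macrophage and dendritic cell markers 18 were measured, and 8 rose and 1 fell (6.60% and 4.80% of all genes), with a summed signal of 18468 to 20524 against 29297 to 31231. Laptm5, Csf1r and Ctss rose by 1.65, 1.42 and 1.32 on the log2 scale, Mrc1 fell by 1.58, and Cd163 was at or below background on all arrays. In bulk tissue of this kind, more cells of a type and more RNA per cell cannot be told apart. The part of neutrophils, macrophages or dendritic cells in the differences of Il1a, Il1b, Il1r2 and the response genes was not tested. T and NK cell markers showed 1 of 16 rising and 1 falling, with 9 at or below background on all arrays. Of 11 fibroblast markers 4 rose and 1 fell, with a summed signal of 46676 to 46727 against 55003 to 55320. Postn was 1.99-fold, Col5a1 1.72-fold, Thy1 1.68-fold and Col1a1 1.25-fold higher, and Pdgfra was 2.06-fold lower. The part of connective tissue in the differences was not tested either. Beside the low values of Il33, 8 of 9 measured endothelial markers were above background in at least 1 group. Of the 9, 0 rose and 1 fell, Egfl7, which was 2.59-fold lower in peri-implant samples on 1 of its 2 probe sets.

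For 1 member of each kind, taken by the highest mean signal over the 4 arrays among ligands (the antagonist included) and among receptors, the genes most like it in pattern were found by Euclidean distance over the 4 arrays between mean-centred log2 signals, among 12117 probe sets with 1 symbol above background on all arrays. That signal only picks the member and is no ranking of transcript levels. Nearest to Il1rn were Pgd (distance 0.01), Ppm1b (0.02) and Triap1 (0.02). Nearest to Il1r2 were Klf12 (0.12), LOC100909675 (0.12) and Cald1 (0.13). With 4 arrays these distances are a description.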

How the data were processed

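Gene expression was measured on 4 arrays, and groups and replicate numbers were taken from the sample titles. Per the labels' protocols, RNA of microdissected epithelium was extracted, amplified with the Ovation system and biotin-labelled. The authors deposited log2 signals. For their software and normalization the sources used here name nothing. By their values, the arrays appear to have been scaled, each to a trimmed mean linear signal of about 500.19 (2% trimmed at each end), with linear values floored at 1 (378 to 729 probe sets per array at log2 0). The number of arrays limits the precision.

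Tests omitted 57 control probe sets. Of the rest, 20826 had 1 symbol in the platform annotation, 436 several and 9780 none. A fold is given as "at least" where an array of the lower group was at or below background, after raising signals to it. The fit used R 4.3.3 and limma 3.58.1 and was checked on simulated data. The intensity trend was used because replicates varied more at low signal (median SD 1.15 at a mean of 6 or less, 0.11 above 9). Lists were counted by each gene's brightest probe set. The members, lists and tests were chosen with earlier results of these data known. Genes were named by rule: all members, up to 4 of each other list by test and then size, and nearest patterns. Other names, including markers below background, Myd88, Irak2, Irak3, Krt5, Krt19 and Il18bp, were chosen after their values were seen. Alternatives were other priors, normalizations, filters, gene summaries, a replicate block and leaving out each array.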

Additional observations from a re-analysis of the deposited data

How the results depend on the processing

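The differences of Il1b, Il1a and Il1r2 kept their direction under all alternatives tried. For many of these that was fixed in advance. Other priors, the filter and the replicate block leave the estimates unchanged, and leaving out 1 array cannot reverse groups that do not overlap. With limma's default prior, 0 probe sets, 0 members' probe sets and 0 genes of each of the 4 pathway lists passed. By gene in place of probe set, 1810 genes (brightest probe set) and 1422 genes (mean of probe sets) passed, against 2762 probe sets. Arrays centred on the median gave 47.9% of calls as higher, against 53.2% as reported. The gaps of Il1a and Il1b against Il1rn changed by 0.73 and 1.46 with quantile normalization.

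Leaving out 1 array at a time gave 73 to 353 called probe sets, 1 member (Il1b), 0 other family genes, 0 processing genes, 0 to 4 signalling genes and 5 to 9 response genes. Il1r1 (1392946_at) then ran from -0.19 to 0.023, Il1rap from -0.15 to 0.20 (1393563_at) and -0.77 to 0.33 (1387507_at), Il1rl1 from -1.36 to 1.11 (1370692_at) and -1.75 to 1.72 (1387273_at), and Il33 (1389581_at) from -0.19 to 0.78. Il1rap (1393563_at) was -0.027 with arrays centred and -0.10 as the mean of its probe sets. The cause of these reversals was not tested. The Il1rl1 and Il33 values lie below background, and those of Il1r1 and Il1rap come from arrays that overlap between groups.

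Whether replicate numbers pair the samples is not known. The correlation of replicate differences between the groups was 0.04 across probe sets, which are not independent. With a single replicate difference per group, this value cannot settle the question. The fit with the replicate number as a block called 4202 probe sets and 6 members' probe sets, with Il1rn (adjusted p = 0.0187) and Il1r1 (1370750_a_at, adjusted p = 0.046) added. Signals near background limit Il33 and Il1rl1.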
